A study of Manihot esculenta with 3 samples.

Results

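The neighbouring abundant genes of the cassava leaf are 69 genes that stand side by side in the gene order and were each abundant in every library. They were chosen by rule from the 33033 genes listed, of which 31895 carry the number of a chromosome (1 to 18) in their identifier. Genes were put in the order of their identifiers within each chromosome. A gene qualified if its level was at least 100 FPKM in all 3 libraries, its mean was below 1000 FPKM, and its highest value was less than 2 times its lowest. FPKM is the number of sequenced fragments per kilobase of transcript, scaled to the mapped fragments of the library. A gene became a member if the gene directly before or after it also qualified. Of the 31895 genes, 802 qualified, which is 2.51%, and 69 of these (8.6%) had a qualifying neighbour. The 8.6% counts a neighbour on either side, so it is not on the same footing as the 2.51%. Of the single positions directly next to a qualifying gene, 4.49% held another. The 69 members form 33 clusters, 30 of them pairs and 3 of them runs of 3 genes, and they hold 36 pairs of directly adjacent genes. The measured levels chose the members, so that they are abundant and even between libraries is not a finding.

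Cassava (Manihot esculenta) is a tropical shrub grown for its starchy roots. The 3 libraries were replicates of 1 group: polyadenylated RNA from leaves of cultivar TME 7, taken from plants 7.5 weeks old, with no treatment named in the labels. The leaf was either the 3rd or the 4th that had fully expanded, and the labels do not tie a leaf position or a plant to a library. The spread between replicates may therefore be partly or wholly technical. With 1 group there was no comparison of conditions. The cultivar is the only genotype here.

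As background, in a mature leaf much of the messenger RNA comes from few genes, above all those for photosynthesis, and many more genes serve general upkeep such as protein synthesis. Plant chromosomes often hold tandem copies of a gene side by side, and such copies can keep similar activity or drift apart. Unrelated genes can also sit next to each other and share a stretch of open chromatin or a promoter region between them. The level of a transcript in a tissue is the balance of its synthesis and its decay. None of the 33033 identifiers matched the RefSeq gene table of assembly M.esculenta_v8, and the deposited table pairs none with a name. Members are therefore called by identifier, no function is given to any of them, and the leaf label was not checked against marker genes. The sequences of the genes were not used here, so whether the members of a cluster are copies of each other was not tested.

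Summed FPKM lay between 915236 and 952243 per library. The number of fragments is not listed. From the steps between values of low genes, a fragment was worth 1.57 times as much FPKM in replicate 3 as in replicate 1 and 1.54 times as much as in replicate 2, which would give replicate 3 the fewest fragments. Only 47.0% and 56.8% of the low genes used lay on such steps, so this is an estimate. Identifier numbers rise by 100 from each gene to the next in all 31877 neighbouring pairs of the table, so no listed number is skipped between members. Genomic distances between the genes were not used here.

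Members Manes.03G073700.v6.1 and Manes.05G131800.v6.1 carry values that other genes share exactly. Manes.03G073700.v6.1 was listed at 197, 197 and 369.8 FPKM in replicates 1, 2 and 3. In every library at least 1 other gene was listed at exactly the same value: 2 other genes in replicate 1, 1 in replicate 2 and 3 in replicate 3. Manes.05G131800.v6.1 was listed at 102, 118 and 192 FPKM, and 1 other gene shared its replicate 1 value. All 5 genes that shared a value with these members were listed at 0 in another library. Identical values at this level and zeros in other libraries occur together in the table, and their part in the 2 members' levels was not tested. Counts over pairs, flanking genes and chromosome ends are also given without the 2 clusters that these genes belong to. Without genes that share such values, 65 members in 31 clusters remained.

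The members stood in the lower part of the permitted range. Their mean levels ran from 108 FPKM, in Manes.04G031600.v6.1, to 703 FPKM, in Manes.05G090000.v6.1, with a median of 204 FPKM. By mean level the members ranked between 130 and 1163 among the genes with a chromosome number. Means below 200 FPKM were found in 34 of the 69 members, means of 200 to 500 FPKM in 24 and means of 500 FPKM or more in 11. Among the 733 lone qualifying genes, which have no qualifying neighbour, the median of the means was 188 FPKM and 59 genes (8.05%) reached 500 FPKM, against 15.9% of the members. The median level per library was 200.2 ± 6.48 FPKM for the members and 191 ± 7.01 FPKM for the lone genes (SD, n = 3). It was the higher in the members in each library, at 193 against 184, 203 against 198 and 205 against 191 FPKM. These SDs are over libraries and do not cover the spread between genes. The members held 1.98% ± 0.018 of summed FPKM (SD, n = 3), and the lone genes held 19.6% ± 0.48. No test was made, because the same values chose both sets.

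**Figure D1:**
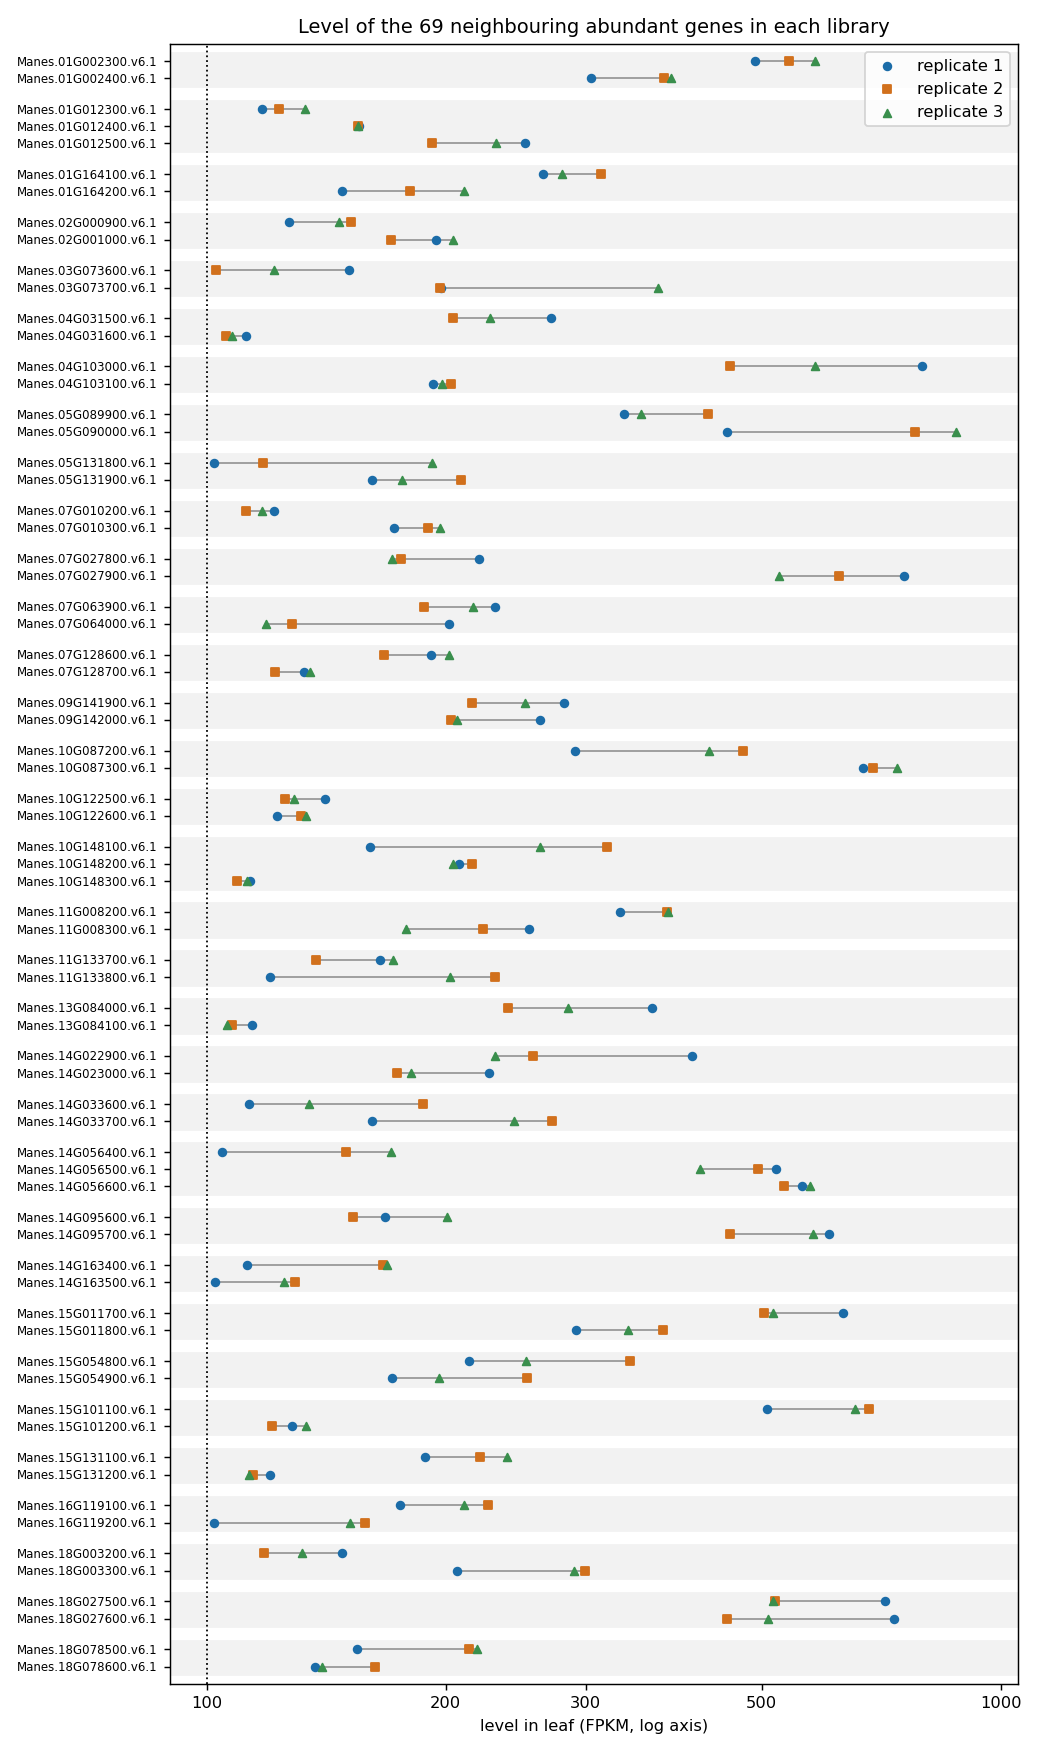
Level of each of the 69 members in replicates 1, 2 and 3 (points, FPKM on a log axis), grouped by cluster (grey bands) in identifier order; the horizontal lines join the lowest and highest library and the dotted line marks 100 FPKM. Means run from 108 FPKM in Manes.04G031600.v6.1 to 703 FPKM in Manes.05G090000.v6.1, and the library with the highest value is the same for both genes in 14 of the 36 adjacent pairs.

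Evenness between libraries varied widely within the limit of the rule. The highest value was 1.29 times the lowest in the median member, and less than 1.1 times in 10 of the 69 members. The evenest was Manes.01G012400.v6.1 at 156, 155 and 155 FPKM, a ratio of 1.00. The most uneven was Manes.10G148100.v6.1 at 160.4, 319 and 263 FPKM, a ratio of 1.99. The lone genes were alike in this respect, with a median ratio of 1.28 and 15.0% of them below 1.1, against 14.5% of the members. Replicate 1 was the lowest library in 33 members, replicate 2 in 26 and replicate 3 in 10. Replicate 1 was also the highest library in 27 members, replicate 2 in 20 and replicate 3 in 22. Replicate 3 was highest in 31.9% of the members and in 20.5% of the lone genes, and replicate 2 was highest in 29.0% and 39.6%. The lowest library was spread alike over both sets, with replicate 1 lowest in 47.8% of the members and 49.1% of the lone genes.

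The 3 runs of 3 genes lie on chromosomes 1, 10 and 14, and each differs in shape. On chromosome 1, Manes.01G012300.v6.1 stood at 117, 123 and 133 FPKM in replicates 1, 2 and 3. The next gene, Manes.01G012400.v6.1, stood at 156, 155 and 155 FPKM. The last, Manes.01G012500.v6.1, stood at 252, 192 and 231 FPKM. The 3 genes formed a rising staircase along the order in every library, with no overlap between their values. Manes.01G012500.v6.1 was 1.45-fold above Manes.01G012400.v6.1, which was 1.25-fold above Manes.01G012300.v6.1. The genes just outside were far lower: 2.03, 2.31 and 1.52 FPKM for Manes.01G012200.v6.1 before the run and 18.3, 12.5 and 14.5 FPKM for Manes.01G012600.v6.1 after it.

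On chromosome 10 the steps went down, except in replicate 1. Manes.10G148100.v6.1 was low in replicate 1 and higher in the other libraries (160.4, 319 and 263 FPKM). Its neighbour Manes.10G148200.v6.1 was even at 208, 216 and 205 FPKM. The last gene, Manes.10G148300.v6.1, was lower and even at 113, 109 and 113 FPKM. The first 2 genes overlapped and changed order between libraries: Manes.10G148100.v6.1 was below Manes.10G148200.v6.1 in replicate 1 and above it in replicates 2 and 3. Manes.10G148200.v6.1 was above Manes.10G148300.v6.1 in every library, by 0.90 ± 0.07 on the log2(FPKM + 1) scale (SD, n = 3). The genes directly outside were low. Manes.10G148000.v6.1 before the run was at 0.753, 0.847 and 0.765 FPKM and Manes.10G148400.v6.1 after it at 0.497, 0.524 and 0.801 FPKM. By the rule a run ends at a gene that does not qualify. Farther out, Manes.10G148800.v6.1 stood at 219, 156 and 169.7 FPKM, above Manes.10G148300.v6.1 in every library.

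The run on chromosome 14 joined 1 gene of moderate level to a higher pair. Manes.14G056400.v6.1 stood at 104, 149.7 and 171 FPKM in replicates 1, 2 and 3. Manes.14G056500.v6.1 stood at 521, 494 and 418 FPKM, and Manes.14G056600.v6.1 at 562, 534 and 574 FPKM. The libraries ran in opposite order in the first 2 genes: replicate 1 was the lowest in Manes.14G056400.v6.1 and the highest in Manes.14G056500.v6.1. Their difference therefore shrank to 1.29 on the log2(FPKM + 1) scale in replicate 3, against 2.31 in replicate 1. Manes.14G056600.v6.1 averaged 557 ± 20.8 FPKM and Manes.14G056500.v6.1 averaged 478 ± 53.5 FPKM (SD, n = 3), and their values did not overlap. The neighbours outside were Manes.14G056300.v6.1 at 0.391, 0.422 and 0.640 FPKM and Manes.14G056700.v6.1 at 5.08, 4.49 and 5.07 FPKM.

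**Figure D2:**
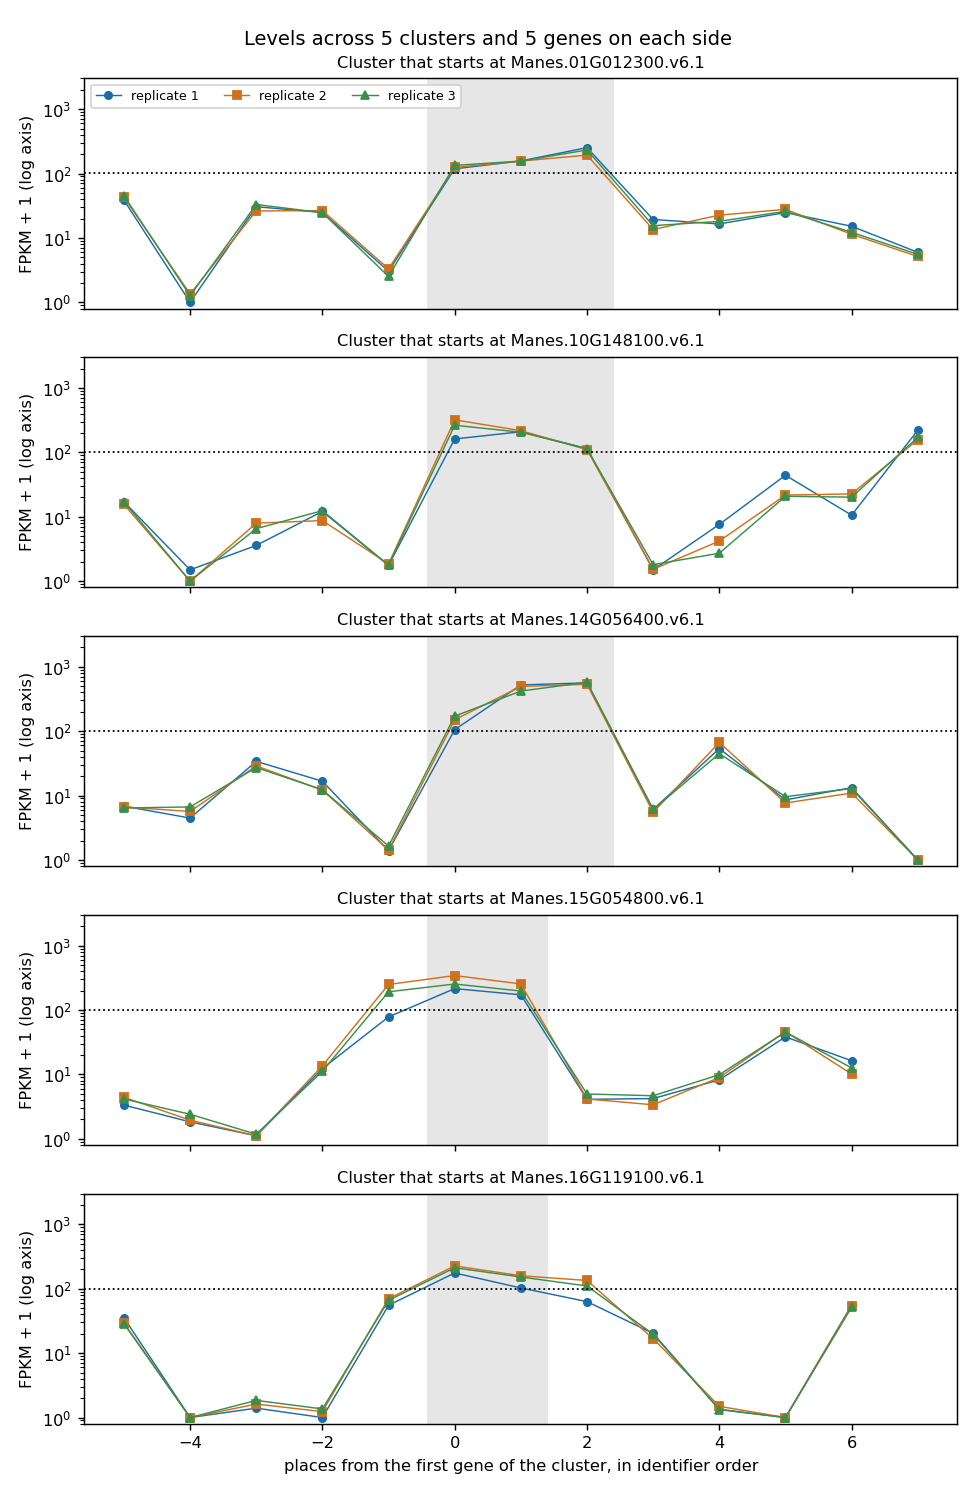
Level (FPKM + 1, log axis) of the genes of 5 clusters (grey) and of 5 genes on each side, by place in the identifier order, with 1 line per library; the dotted line is 100 FPKM. The 3 upper panels are the runs of 3 genes, where the genes directly outside are at 15.1 FPKM or less on average; the 2 lower panels are clusters chosen after their values were seen, where 3 of the 4 genes directly outside average 62.9 to 172 FPKM.

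The highest summed level belonged to a pair on chromosome 18. Manes.18G027500.v6.1 stood at 715, 519 and 517 FPKM in replicates 1, 2 and 3, and Manes.18G027600.v6.1 at 733, 452 and 509.6 FPKM. Both were highest in replicate 1, their values overlapped, and their order was not the same in every library. On chromosome 10, Manes.10G087300.v6.1 was even at 671, 690.5 and 740.1 FPKM, whereas Manes.10G087200.v6.1 had 291, 473 and 429 FPKM. The values of this pair did not overlap, and both genes were lowest in replicate 1. On chromosome 5, Manes.05G090000.v6.1 had 452, 779.6 and 878 FPKM and Manes.05G089900.v6.1 had 335, 428 and 352 FPKM. Replicate 1 was again the lowest in both, and the gap between the genes varied from 0.43 in replicate 1 to 1.31 in replicate 3 on the log2(FPKM + 1) scale.

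The lowest summed levels were those of a pair on chromosome 10, a pair on chromosome 14 and the first 2 genes of the chromosome 1 run. Manes.10G122500.v6.1 stood at 141, 125 and 129 FPKM and Manes.10G122600.v6.1 at 123, 132 and 133 FPKM in replicates 1, 2 and 3. These genes could not be ordered, since the first was higher in replicate 1 and the second in replicates 2 and 3. On chromosome 14, Manes.14G163400.v6.1 stood at 112, 167 and 168 FPKM and Manes.14G163500.v6.1 at 102, 129 and 125 FPKM. Both were lowest in replicate 1, and their values overlapped although Manes.14G163400.v6.1 was the higher in every library.

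Adjacent members were about as far apart in mean level as other qualifying genes, with a somewhat lower median difference within each library. The median absolute log2 difference between the means of adjacent members was 0.63 over 36 pairs, against 0.64 over all 302572 pairs of qualifying genes on different chromosomes. By library the median was 0.59 ± 0.033 for adjacent members and 0.68 ± 0.015 for the other pairs (SD, n = 3). It was lower for adjacent members in each library: 0.57 against 0.67, 0.56 against 0.69 and 0.62 against 0.66 in replicates 1, 2 and 3. These SDs are over libraries that measured the same pairs, so they do not cover the spread between pairs, which is far wider. The quartiles of the difference between means were 0.40 and 0.94 for adjacent members, against 0.29 and 1.17. The means of 27 of the 36 pairs were less than 2-fold apart, 75%, against 68.3% of the pairs on different chromosomes. At the other end, 9 pairs were 2-fold apart or more. In 25 of 36 adjacent pairs, 69.4%, all 3 values of the higher gene lay above all 3 of the lower, against 66.2% of the pairs on different chromosomes. The same gene was the higher in every library in 31 of 36 pairs, 86.1%, against 75.9%. Without the pairs that hold a shared value, 26 of 34 were less than 2-fold apart, 24 of 34 did not overlap and 30 of 34 kept their order, and the median difference was 0.63. Each of these shares was higher than that of genes on different chromosomes, with the widest gap for the kept order. The share of pairs with means less than 1.5-fold apart went the other way. It was 16 of 36 adjacent pairs, 44.4%, against 46.3% of pairs on different chromosomes. Without the pairs that hold a shared value it was 15 of 34, 44.1%. No test was made, because pairs of genes are not replicates of a condition. Whether a gene came first or second in the order made little odds: the first was the higher in 21 of the 36 pairs.

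The smallest differences were found in the pair Manes.10G122500.v6.1 and Manes.10G122600.v6.1, whose means were 1.02-fold apart, in Manes.18G027500.v6.1 and Manes.18G027600.v6.1, at 1.03-fold, and in a pair on chromosome 9. There Manes.09G141900.v6.1 stood at 282, 216 and 251 FPKM and Manes.09G142000.v6.1 at 263, 203 and 207 FPKM in replicates 1, 2 and 3. The libraries ran in the same order in both genes of this pair, highest in replicate 1 and lowest in replicate 2. Manes.09G141900.v6.1 was the higher in every library, by 0.16 ± 0.11 on the log2(FPKM + 1) scale (SD, n = 3), though the values overlapped.

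The largest difference was on chromosome 15. Manes.15G101100.v6.1 stood at 508, 682 and 656 FPKM in replicates 1, 2 and 3, and Manes.15G101200.v6.1 at 128, 121 and 133 FPKM. The mean of Manes.15G101100.v6.1 was 4.82-fold that of its neighbour, and the log2(FPKM + 1) difference was 2.25 ± 0.25 (SD, n = 3). The difference between Manes.14G056500.v6.1 and Manes.14G056400.v6.1, described above, was next at 3.37-fold. On chromosome 7, Manes.07G027900.v6.1 stood at 754, 626 and 526 FPKM and Manes.07G027800.v6.1 at 220.3, 176 and 171 FPKM. Although these were 3.36-fold apart, replicate 1 was the highest and replicate 3 the lowest in both, and their log2 difference varied little, at 1.74 ± 0.11 (SD, n = 3). The members of a pair were named higher and lower from these same values, so the direction was not tested. With 3 libraries an exact sign-flip test could not give a p below 0.25.

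**Figure D3:**
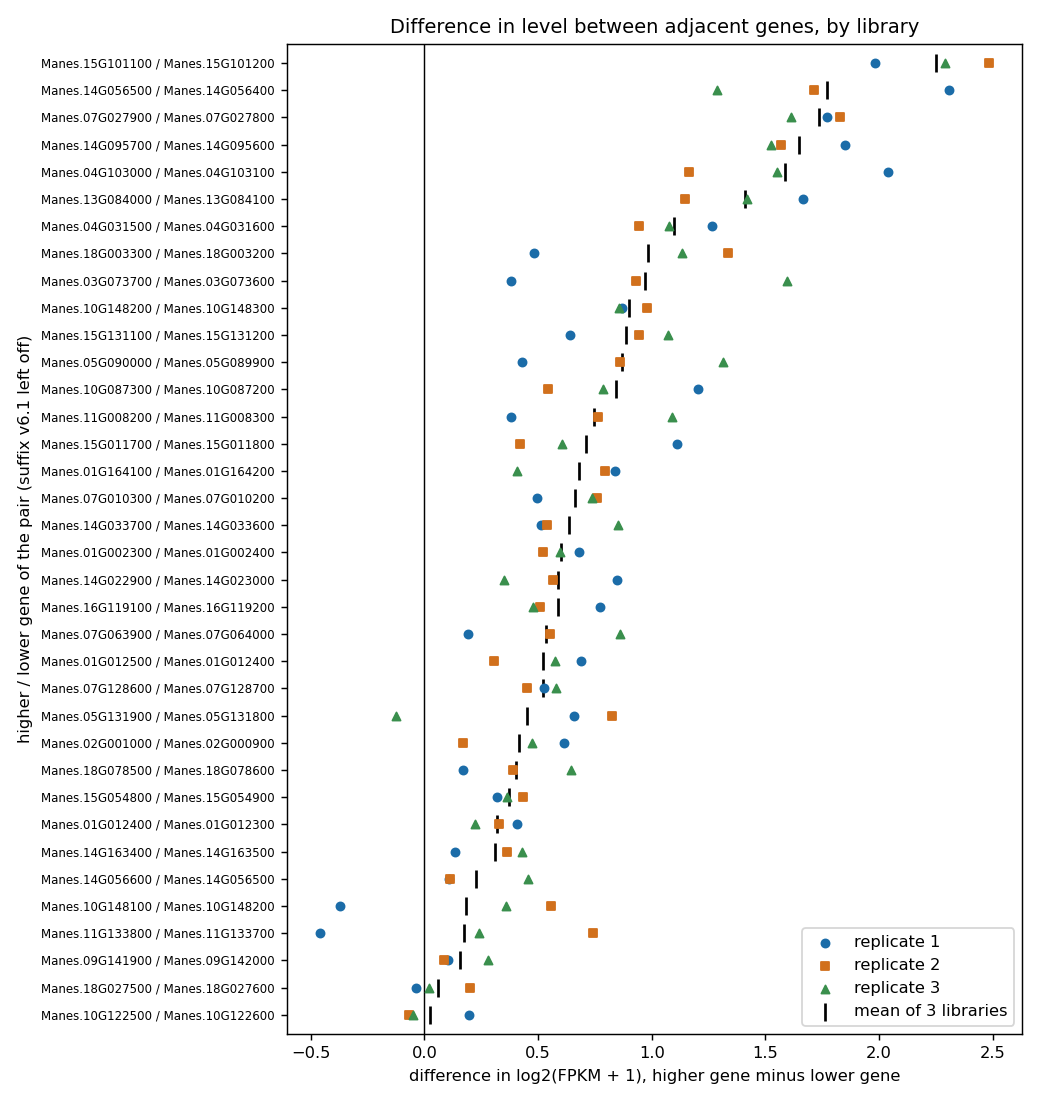
Difference in log2(FPKM + 1) between the genes of each of the 36 adjacent pairs, higher gene minus lower gene, in each library (points) and as the mean of 3 libraries (bars), sorted by the mean. In 31 pairs all 3 points lie above 0, and in 5 pairs the order changes between libraries.

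Adjacent members had their highest or lowest library in common at shares near those of genes on different chromosomes. The same library was the highest in both genes in 14 of 36 pairs, 38.9%, against 35.4% of pairs on different chromosomes. The exact (Clopper-Pearson) 95% interval of the first share, which covers counting error only and treats the pairs as independent, was 23.1% to 56.5%. The same library was the lowest in 17 of 36 pairs, 47.2% with an interval of 30.4% to 64.5%, against 39.3%. Both were shared in 9 pairs, 25% against 24.3%. The rule limits how far the libraries may differ but not which is highest. Without the pairs that hold a shared value, the same library was the highest in 14 of 34 pairs, the lowest in 15 of 34 and both in 9 of 34. Replicate 1 lay on the same side of the gene's own mean in both genes in 58.3% of adjacent pairs, against 50.3% of pairs on different chromosomes. For replicate 2 these shares were 63.9% and 50.1%, and for replicate 3 they were 44.4% and 51.1%. The median distance between the centred log2 patterns of the genes of a pair was 0.32 for adjacent members and 0.37 for pairs on different chromosomes. As a description over the 36 pairs, which share libraries and in the runs also genes, the deviation of replicate 1 from the gene's own mean correlated between first and second gene with Pearson's r = 0.29 and Spearman's rho = 0.32. For replicate 2 these were 0.39 and 0.39, and for replicate 3 they were -0.05 and 0.05. Over the 34 pairs without a shared value, Pearson's r was 0.33, 0.39 and 0.04 and Spearman's rho was 0.38, 0.40 and 0.11 for replicates 1, 2 and 3.

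The closest patterns belonged to a pair on chromosome 15 and a pair on chromosome 7. Manes.15G054800.v6.1 stood at 214, 342 and 252 FPKM in replicates 1, 2 and 3, and Manes.15G054900.v6.1 at 171, 253 and 196 FPKM. Manes.15G054800.v6.1 was 1.25, 1.35 and 1.29 times Manes.15G054900.v6.1 in the 3 libraries, and both were lowest in replicate 1 and highest in replicate 2. Manes.07G128600.v6.1 stood at 192, 167 and 202 FPKM and Manes.07G128700.v6.1 at 133, 122 and 135 FPKM, with the same order of libraries and no overlap.

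The most unlike patterns were those of a pair on chromosome 3 and a pair on chromosome 11. On chromosome 3, Manes.03G073700.v6.1, the gene whose values were all shared with other genes, was highest in replicate 3, while Manes.03G073600.v6.1 had 151, 103 and 122 FPKM. On chromosome 11, Manes.11G133800.v6.1 had 120.0, 231 and 203 FPKM and Manes.11G133700.v6.1 had 165, 137 and 172 FPKM. Manes.11G133800.v6.1 was the lower gene in replicate 1 and the higher in replicates 2 and 3, so its mean excess of 0.17 ± 0.60 on the log2(FPKM + 1) scale was smaller than its spread (SD, n = 3).

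The 18 pairs not named above complete the members. In 5 of them, all without overlap, the genes were 2-fold apart or more. Manes.14G095700.v6.1 averaged 548 ± 81.3 FPKM and Manes.14G095600.v6.1 averaged 174 ± 24.5 FPKM (SD, n = 3 here and in the following). Manes.04G103000.v6.1 averaged 611 ± 171 FPKM and Manes.04G103100.v6.1 averaged 198 ± 5.02 FPKM. Manes.13G084000.v6.1 averaged 296 ± 62.7 FPKM and Manes.13G084100.v6.1 averaged 109 ± 4.19 FPKM. In these 3 pairs, as in the rest of the 5, the higher gene had the larger SD in FPKM. Relative to the mean, the SD was also the larger in the higher gene of all 5 pairs. It was 14.8% in Manes.14G095700.v6.1, close to the 14.1% in Manes.14G095600.v6.1. The gap was wider in the others: 28.0% in Manes.04G103000.v6.1 against 2.54%, and 21.2% in Manes.13G084000.v6.1 against 3.84%. In the pairs named next it was 14.5% in Manes.04G031500.v6.1 against 3.06%, and 19.2% in Manes.18G003300.v6.1 against 11.2%. Manes.04G031500.v6.1 averaged 234 ± 33.9 FPKM and Manes.04G031600.v6.1 averaged 108 ± 3.32 FPKM. Manes.18G003300.v6.1 averaged 265 ± 51.1 FPKM and Manes.18G003200.v6.1 averaged 133 ± 14.9 FPKM. Replicate 1 was the highest library of the higher gene in the first 4 of these pairs and the lowest in Manes.18G003300.v6.1.

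In a further 9 pairs the genes were less than 2-fold apart and still did not overlap. Manes.01G002300.v6.1 averaged 538 ± 46.4 FPKM and Manes.01G002400.v6.1 averaged 356 ± 43.9 FPKM. Manes.01G164100.v6.1 averaged 286 ± 24.6 FPKM and Manes.01G164200.v6.1 averaged 179.8 ± 31.6 FPKM. Manes.07G010300.v6.1 averaged 186 ± 12.7 FPKM and Manes.07G010200.v6.1 averaged 117 ± 4.87 FPKM. Replicate 1 was the lowest library in both genes of the first 2 of these pairs. Manes.02G001000.v6.1 averaged 189.9 ± 17.1 FPKM and Manes.02G000900.v6.1 averaged 142 ± 13.2 FPKM. Manes.15G011700.v6.1 averaged 550.4 ± 71.2 FPKM and Manes.15G011800.v6.1 averaged 335 ± 41.7 FPKM. Manes.15G131100.v6.1 averaged 216 ± 25.7 FPKM and Manes.15G131200.v6.1 averaged 116 ± 3.81 FPKM. In each of these 3 pairs the genes had different highest and different lowest libraries. Manes.11G008200.v6.1 averaged 364 ± 28.1 FPKM and Manes.11G008300.v6.1 averaged 219 ± 38.4 FPKM. Manes.14G022900.v6.1 averaged 299 ± 95.8 FPKM and Manes.14G023000.v6.1 averaged 194 ± 28.7 FPKM. Manes.16G119100.v6.1 averaged 204 ± 26.1 FPKM and Manes.16G119200.v6.1 averaged 137 ± 30.7 FPKM. Both genes on chromosome 16 were lowest in replicate 1 and highest in replicate 2.

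The last 4 pairs overlapped. Manes.14G033700.v6.1 averaged 226 ± 57.5 FPKM and Manes.14G033600.v6.1 averaged 145 ± 38.1 FPKM, and both genes were lowest in replicate 1 and highest in replicate 2. Manes.07G063900.v6.1 averaged 212 ± 21.7 FPKM and Manes.07G064000.v6.1 averaged 149.6 ± 45.4 FPKM. Manes.18G078500.v6.1 averaged 196 ± 35.9 FPKM and Manes.18G078600.v6.1 averaged 147 ± 14.3 FPKM. The higher gene of each of these pairs was the higher in every library. Manes.05G131900.v6.1 averaged 182 ± 24.4 FPKM and Manes.05G131800.v6.1 averaged 137 ± 48.2 FPKM, and in this pair, which holds a shared value, the order changed in replicate 3.

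The share of qualifying genes was higher directly next to another qualifying gene than over all genes with a chromosome number. Of 1602 positions directly next to a qualifying gene, 72 held another, 4.49%, against 2.51% of all genes with a chromosome number. With genes that have shared values taken as not qualifying, it was 68 of 1572, 4.33%. At a distance of 2 places the share was 3.87%, and from 3 to 5 places it was 2.37% to 2.87%. At larger distances the share moved between 1.25% at 16 places and 4.14% at 19 places. The share at 19 places was nearly as high as at 1 place, so the share at any 1 distance varied by about that much. The rule fixed the pairs at 1 place and not those farther away, but all distances share the same 802 genes. No chance level was computed. The resemblance of next genes in this table was known when the members were chosen and is not independent support.

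**Figure D4:**
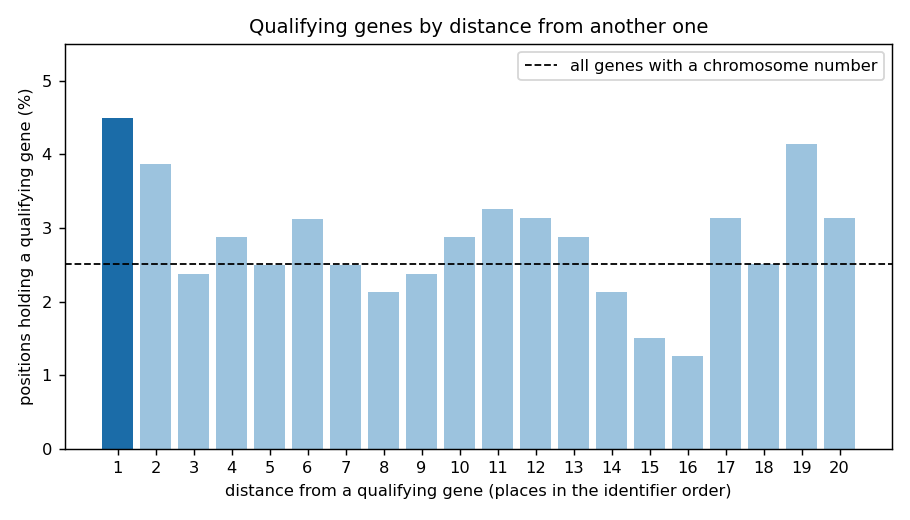
Share of positions that hold a qualifying gene (%), by distance in places from another qualifying gene, with the distance of 1 place that defines the clusters in dark blue; the dashed line is the share among all genes with a chromosome number. The share is 4.49% at 1 place and 3.87% at 2 places, and lies between 1.25% and 4.14% from 3 to 20 places.

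The genes just outside the clusters were mostly far below the floor of the rule. All 33 clusters had a listed gene on each side, 66 in all. The median level of these flanking genes per library was 7.35 ± 0.25 FPKM, against 6.0 ± 0.069 FPKM beside lone qualifying genes and 4.10 ± 0.12 FPKM over all genes that did not qualify (SD, n = 3). These SDs are over libraries and do not cover the spread between genes, which is far wider: flanking genes ranged from 0 to 2249 FPKM on average. A mean of 10 FPKM or more was found in 30 of 66 flanking genes, 45.5%, against 41.1% beside lone genes and 34.7% of genes that did not qualify. A mean of 50 FPKM or more was found in 12, 18.2%, against 8.40% and 6.27%. A mean of 100 FPKM or more was found in 6, 9.09%, against 2.19% and 1.51%. At 0 in every library were 6 of the 66, 9.09%, against 13.1% and 16.1%. These counts were not tested, since genes are not replicates. Without the 2 clusters with shared values the median was 6.88 ± 0.32 FPKM (SD, n = 3), and of 62 flanking genes 27, 10 and 5 reached 10, 50 and 100 FPKM and 5 were at 0 in every library. Both flanking genes were below 1 FPKM on average in 4 clusters, and both were at 10 FPKM or more in 8 clusters.

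**Figure D5:**
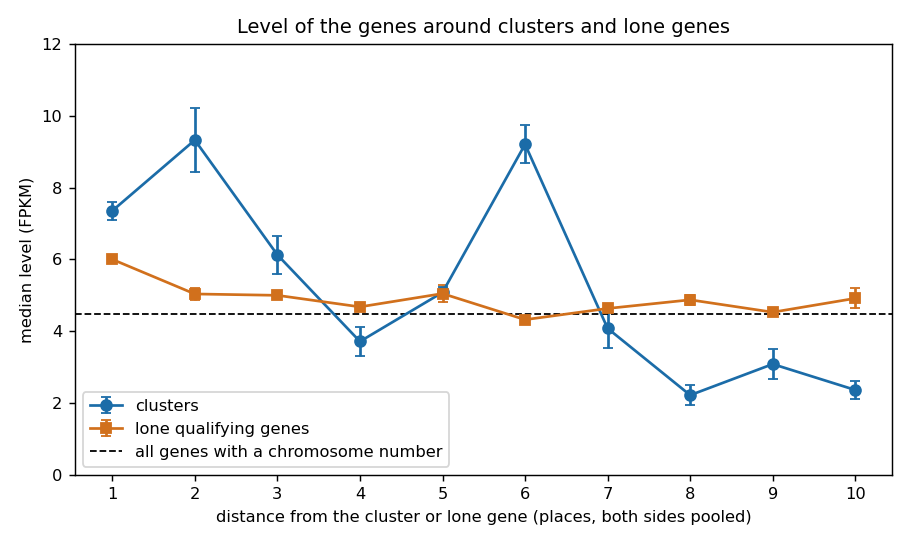
Median level (FPKM) of genes 1 to 10 places outside the clusters (blue) and outside lone qualifying genes (orange), both sides pooled; points are means of the 3 library medians, bars are SD over the 3 libraries, and the dashed line is the median of all genes with a chromosome number, 4.49 FPKM. Directly outside, the medians are 7.35 FPKM for clusters and 6.0 FPKM for lone genes; farther out the cluster line, from 65 or 66 genes a point, moves between 2.22 and 9.32 FPKM.

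Among the 6 flanking genes with a mean of 100 FPKM or more, Manes.04G102900.v6.1 and Manes.07G128500.v6.1 were over the limit on the mean. Manes.04G102900.v6.1 stood at 2973, 1702 and 2072 FPKM in replicates 1, 2 and 3, beside Manes.04G103000.v6.1 at 795, 456 and 583 FPKM. It was 3.74, 3.73 and 3.55 times that member in the 3 libraries, so both genes moved alike over the libraries. The gene on its other side, Manes.04G103100.v6.1, was even at 193, 203 and 198 FPKM and did not follow. Manes.07G128500.v6.1 stood at 1889, 1670.3 and 1742 FPKM, before the pair Manes.07G128600.v6.1 and Manes.07G128700.v6.1.

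The other 4 of these flanking genes, Manes.04G031400.v6.1, Manes.05G131700.v6.1, Manes.15G054700.v6.1 and Manes.16G119300.v6.1, were below 100 FPKM in replicate 1 and above it in replicates 2 and 3. Manes.04G031400.v6.1, Manes.15G054700.v6.1 and Manes.16G119300.v6.1 also broke the limit on the ratio of highest to lowest library, at 2.18, 3.22 and 2.15. Manes.15G054700.v6.1 stood at 77.1, 248 and 191 FPKM, and with Manes.15G054800.v6.1 and Manes.15G054900.v6.1 it made a row of 3 genes that were lowest in replicate 1 and highest in replicate 2. On chromosome 16 the row was of 4 genes. Manes.16G119000.v6.1 stood at 54.4, 69.2 and 65.2 FPKM. Members Manes.16G119100.v6.1 and Manes.16G119200.v6.1 stood at 175, 226 and 211 FPKM and at 102, 158 and 151 FPKM. Manes.16G119300.v6.1 stood at 62.2, 134 and 109.6 FPKM. All 4 genes were lowest in replicate 1 and highest in replicate 2. These rows were singled out after their values were seen. Over the wider set of flanking genes the shares lay near those elsewhere. Of the 30 flanking genes of mean 10 FPKM or more, 8 had both their highest and their lowest library in common with the member beside them, against 25.7% of such genes beside lone genes, and 12 were lowest in replicate 1, against 41.4% of genes of that level that did not qualify. Of the 12 with a mean of 50 FPKM or more, 6 had both in common, against 29.3% beside lone genes, and 9 were lowest in replicate 1, against 49.1%. These counts are small and were not tested.

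The membership depended on replicate 1 more than on the others. With the rule applied to replicates 2 and 3 alone there were 115 members in 54 clusters, which included all 69. Without replicate 2 there were 86 members, and without replicate 3 there were 75, again with all 69 among them. Fewer libraries make the rule easier to meet, so some increase is by construction. The retention of all 69 was fixed in advance, because leaving out a library cannot lower a gene's lowest value or raise its ratio. No member value exceeded 878 FPKM, so no mean of 2 libraries could reach the limit.

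The clusters were spread over 14 of the 18 chromosomes. Chromosome 14 held the most, with 11 members in 5 clusters, which were 17.2% of its 64 qualifying genes. Chromosomes 7 and 15 held 8 members each in 4 clusters, and chromosomes 1 and 10 held 7 each in 3 clusters. Chromosome 18 held 6 members in 3 clusters. Chromosomes 4, 5 and 11 held 4 members each, and chromosomes 2, 3, 9, 13 and 16 held 1 pair each. Chromosomes 6, 8, 12 and 17 held none, although chromosomes 6 and 8 had 48 qualifying genes each. The share of listed genes that qualified varied less, between 1.57% on chromosome 12 and 3.67% on chromosome 14. Among the genes of chromosome 7, 22.9% of 35 qualifying genes were members, the highest share. In the first or last 10% of a chromosome's gene order lay 20 of the 69 members, 29.0%, against 20.3% of the lone genes and 20% of all genes. Without the 2 clusters with shared values the count was 20 of 65. This boundary was set after the identifiers were seen, and members come in pairs and runs, so the count rests on fewer independent places than genes. The nearest clusters to each other were on chromosome 1, where 98 genes separate Manes.01G002400.v6.1 from Manes.01G012300.v6.1, and on chromosome 14, where 105 genes separate Manes.14G023000.v6.1 from Manes.14G033600.v6.1.

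The members nearest the limits of the rule, and the genes that just missed them, are given as a description. The lowest single values of any member were 102.1 FPKM in Manes.16G119200.v6.1 and 102.2 FPKM in Manes.05G131800.v6.1, and just outside, next to a qualifying gene, were Manes.05G203200.v6.1 and Manes.18G125100.v6.1 with lowest values of 98.1 and 97.8 FPKM. The highest means were 703 FPKM in Manes.05G090000.v6.1 and 700.5 FPKM in Manes.10G087300.v6.1, and just over the limit of 1000 FPKM were Manes.04G129900.v6.1 at 1000.03 FPKM and Manes.16G097300.v6.1 at 1139 FPKM. The highest ratios of highest to lowest library were 1.99 in Manes.10G148100.v6.1 and 1.94 in Manes.05G090000.v6.1, and just outside were 2.11 in Manes.03G147000.v6.1 and 2.28 in Manes.16G002400.v6.1. Next to a qualifying gene, 12 genes failed only by the limit on the mean and 4 only by the limit on the ratio.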

How the data were processed

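Per the labels' protocols, RNA of 3 leaf samples was treated to remove DNA, and its polyadenylated fraction was sequenced in paired-end mode. The authors deposited 1 table of FPKM values with a column per library. The submitters' processing notes list TopHat2 2.0.11, an aligner, and Cufflinks 2.2.1, which estimates abundance. Not given in the sources used here are the genome build, the settings, any scaling between libraries and the handling of reads that match several genes. Unused columns numbered 0. FPKM is not a count, so no count model, floor or counting interval of levels is given, and an exact 0 can be a failed estimate.

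The 3 samples formed 1 group and no test between groups was made. Members were found by the rule on the values as deposited. Log2 values carry a pseudocount of 1 FPKM, which understates differences of low genes. Adjacent members were set beside all pairs of qualifying genes on different chromosomes. The relative value of 1 fragment came from genes with a mean below 0.6 FPKM in a pair of libraries, as the offset that put the largest share of ratios within 0.01 log2 units of ratios of small whole numbers; that share was 47.0% for replicate 3 over 1, 56.8% for 3 over 2 and 37.8% for 2 over 1. Members, lists and naming rules were chosen with earlier results of these data known. Named by rule were the members of runs of 3, the 3 pairs highest and lowest in summed mean, the 3 pairs closest and the 3 farthest in mean, the 2 pairs closest and the 2 farthest in pattern over libraries (distance between centred log2 values), and the genes nearest each limit. Other members are added to complete the account. Planned lists by product were void, since 0 of 33033 identifiers matched a name. The scripts were tested on 1 simulated table with planted clusters. All planted genes had the same pattern over libraries, so that test did not cover neighbours with unlike patterns. Alternatives tried were other limits, other neighbour definitions, scaling, and leaving out each replicate or genes with shared values. The scripts ran under Python 3.11.15 with scipy 1.17.1, pandas 2.3.3, matplotlib 3.10.9 and numpy 2.4.6.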

Additional observations from a re-analysis of the deposited data

How the results depend on the processing

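The number of members follows the limits of the rule by construction. At a floor of 50 FPKM there were 1978 qualifying genes and 316 members in 152 clusters with 164 adjacent pairs; at 200 FPKM there were 282 and 14 in 7 clusters with 7 pairs. With the ratio limited to 1.5 there were 41 members in 20 clusters with 21 pairs, and with up to 1 other gene between neighbours 123 members in 59 clusters with 64 pairs. The share of summed FPKM held by members, 1.98% as reported, was 5.32% and 0.713% at floors of 50 and 200 FPKM, 10.7% with no upper limit, 1.12% and 2.38% with a ratio limit of 1.5 and with none, 3.42% with 1 gene allowed between, 2.07% with the genes that carry S in place of a chromosome number, 2.22% with genes at 0 in every library taken out of the order, 1.90% without genes with shared values and 2.13% after median-of-ratios scaling. For the alternatives, the difference between adjacent members is given without that of pairs on different chromosomes. A change in it therefore does not tell whether neighbours became more or less alike than other qualifying genes. The median difference between adjacent members, 0.63 log2 units as reported, was 0.83 and 0.60 at floors of 50 and 200 FPKM, 0.82 with no upper limit, 0.67 with a ratio limit of 1.5 and also with none, and 0.60 with genes at 0 taken out of the order. The median level of flanking genes, 7.35 FPKM as reported, was in the same order 5.91, 6.43, 5.78, 9.79, 7.09 and 8.83 FPKM; it was 7.64 FPKM with 1 gene allowed between, 6.88 FPKM with S genes, 6.88 FPKM without genes with shared values, 6.87 FPKM after median-of-ratios scaling and 9.47 FPKM without flanking genes at 0. Identifiers 1 step apart made up 56.25% and 83.7% of pairs when a gene between was allowed or genes at 0 were taken out, by construction. Leaving out each replicate gave 839 to 1072 qualifying genes, 75 to 115 members, 36 to 54 clusters, 39 to 61 adjacent pairs, a share of 2.28% to 3.13%, a difference of 0.60 to 0.65 log2 units and a flanking level of 5.85 to 7.06 FPKM, with the most members and the lowest flanking level without replicate 1. The same highest and the same lowest library were then shared by 49.2% to 66.7% of pairs, where 2 libraries leave only 2 outcomes. Of 155 values under 18 alternatives, 100 stayed within the spread between libraries, the counting interval or 1.5 times a count. Some of these could not change. All next genes are 1 identifier step apart, so requiring that step left the rule as it was. The tally is therefore no measure of robustness. The alternatives that kept the order and left out pairs or clusters with a shared value were chosen after seeing the data. The causes of the other changes were not tested. No paired analysis was possible because the study has 1 group. FPKM does not list fragments, so depth limits cannot be given.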

Other observations

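Genes with the letter S where others have a chromosome number were outside the rule. Of 1138 such genes 9 would qualify, 0.791%, and 2 of them stand side by side: Manes.S021300.v6.1 at 571, 814 and 628 FPKM and Manes.S021400.v6.1 at 128, 179 and 153 FPKM in replicates 1, 2 and 3. Both were lowest in replicate 1 and highest in replicate 2, and their values did not overlap.

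A few clusters continue into more abundant genes: 2 flanking genes, described above, were over the limit on the mean. With no upper limit on the mean, 20 genes of 1000 FPKM or more joined or formed 15 clusters. Most of these clusters held none of the members, and 3 held no gene below that limit. The run Manes.17G066700.v6.1, Manes.17G066800.v6.1 and Manes.17G066900.v6.1 on chromosome 17, which had no member, stood at 4728, 9825 and 3704 FPKM on average. Manes.17G066800.v6.1 was the highest of the 3 in every library, at 10005, 9841 and 9627 FPKM. A gene of moderate level can also stand beside a very abundant one: Manes.05G137300.v6.1 had 215, 146 and 169.8 FPKM, beside Manes.05G137400.v6.1 at 13188, 24482 and 21172 FPKM. The first was highest and the second lowest in replicate 1. These genes were singled out after their values were seen, and nothing was tested.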
